A study of Mus musculus with 6 samples.

Results

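The RNA of glioma-initiating cells (GICs) cultured from the brain tumor of an old mouse given NMN before the tumor (NMN-before) was compared with that of GICs cultured from the tumor of a young mouse, with 1 library for each. The comparison rests on the deposited GIC table of FPKM values, that is fragment counts scaled by transcript length and library size. Of its 46952 rows, the 12809 whose highest value over the 3 GIC libraries was at least 1 FPKM were measured, and the log2 difference of FPKM plus 1, NMN-before minus young, was taken for each. A difference of 1 or more in size is called 2-fold here. This scale understates the change of genes with low values. A row can pass the filter through the library where it is high, so counts of low-value genes rest partly on the filter.

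GICs are cells of a glioma that can seed a new tumor, and the line studied, ms7080 by its tumor label and 7080X1 by its GIC label, comes from C57BL/6 mice. Per the study's design text, such cells were placed intracranially in hosts of either age, tumors were taken once the hosts fell ill, and new GIC cultures were started from those tumors. The 3 GIC groups are NMN-before (an old host that received NMN ahead of the tumor), old (an old host without treatment) and young (a young host), and the tumor table has the same 3 groups. All cultures share the parental line and the passage through a mouse brain. The labels leave NMN abbreviated, which usually stands for nicotinamide mononucleotide, from which cells make NAD+. The dose, route and duration of NMN, the ages of the hosts, the number of mice behind each culture and the culture conditions are not stated in the labels used here. NMN-before and young GICs differ in both host age and NMN, which cannot be told apart in this comparison, and the drift of 1 culture from another cannot be told apart from either. With 1 library per group no test, SD or p-value exists, and every difference compares 2 libraries with no replicate check. Values of old GICs are given beside them; old minus young shares the young library with NMN-before minus young.

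As background, nearly all cells show peptides of their own proteins on MHC class I, a heavy chain paired with beta-2 microglobulin. The peptides are cut by the proteasome, carried into the endoplasmic reticulum by the TAP transporter, trimmed and loaded. Interferons raise this pathway and a broader set of antiviral genes through STAT and IRF factors, which bind promoter motifs named GAS and ISRE. Glioma cells also move between states that resemble oligodendrocyte precursors, astrocytes or mesenchymal cells, each with its own set of marker genes.

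The GIC libraries held an estimated 9720000, 9660000 and 12700000 fragments in NMN-before, old and young GICs, as recovered from the steps of low FPKM values, of which 96.7% came out whole within 0.05 of a fragment. For a transcript of 1 kb, a value of 5 FPKM has a 95% Poisson interval from 3.69 to 6.62 FPKM in NMN-before GICs and from 3.85 to 6.39 in young GICs. A count of 3 fragments on it corresponds to 0.309 FPKM in NMN-before and 0.236 in young GICs. Such intervals cover counting error only.

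The markers that define GICs were present. Sox2, a transcription factor of neural stem cells, was at 65.6 FPKM in NMN-before, 65.1 in old and 52.1 in young GICs. The intermediate filament gene Nes was at 138 FPKM in NMN-before, 154 in old and 123 in young GICs. Of 13 measured genes on the neural stem and GIC list, 10 were higher in NMN-before GICs and 1, Olig2, by 2-fold, with a median difference of 0.23. Few markers of microglia, vessels or blood were measured. Of 18 microglia and macrophage markers 4 were, and their summed level was 17.5 FPKM in NMN-before, 14.8 in old and 17.9 in young GICs. The microglial receptor gene Cx3cr1 was listed at 0 FPKM in NMN-before and 0.0262 in young GICs, and the pan-leukocyte gene Ptprc at 0.175 FPKM in NMN-before and 0.0529 in young GICs. Pecam1 alone of 12 endothelial markers was measured, at 0.581 FPKM in NMN-before and 1.71 in young GICs, and Cd79a alone of 13 lymphocyte markers, at 0.387 FPKM in NMN-before and 1.74 in young GICs. None of 7 erythroid markers was. Of 10 fibroblast markers Col1a1 and Fbln1 were measured in rows of their own, with values given beside the mesenchymal genes, and the pericyte marker Pdgfrb was at 0.0778 FPKM in NMN-before and 0.195 in young GICs. In bulk libraries, fewer cells of a type and less RNA per cell cannot be told apart.

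In all, 459 rows (3.58%) were 2-fold higher and 389 rows (3.04%) 2-fold lower in NMN-before than in young GICs, and the median over all 12809 rows was 0.00. By any amount, 6420 rows were higher and 6342 lower. The counts of list members below are to be read beside these. Protein-coding rows that name 1 gene numbered 10506, with 336 higher and 246 lower. Of the 2-fold rows, 59 were listed at 0 in young GICs and 86 at 0 in NMN-before GICs. Higher rows made up 54.1% of the 2-fold rows; after rescaling to TPM they made up 42.5%, with 618 higher and 837 lower. The difference ran with the base composition of transcripts: over 20 bins of GC content, the bin medians went from -0.19 at the lowest GC to 0.22 at the highest (Spearman 0.20 across 11734 rows, a description, since rows are not replicates). Genes often used as references lay on either side of 0. Actb, cytoplasmic actin, was at 1680.1 FPKM in NMN-before, 1249 in old and 929 in young GICs, and Gapdh, a glycolytic enzyme on chromosome 6, at 907 FPKM in NMN-before, 991 in old and 675 in young GICs. Tbp, a general transcription factor, was at 29.8 FPKM in NMN-before, 34.9 in old and 36.0 in young GICs, and Hprt, of purine salvage, at 55.0 FPKM in NMN-before, 102 in old and 70.7 in young GICs.

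**Figure D1:**
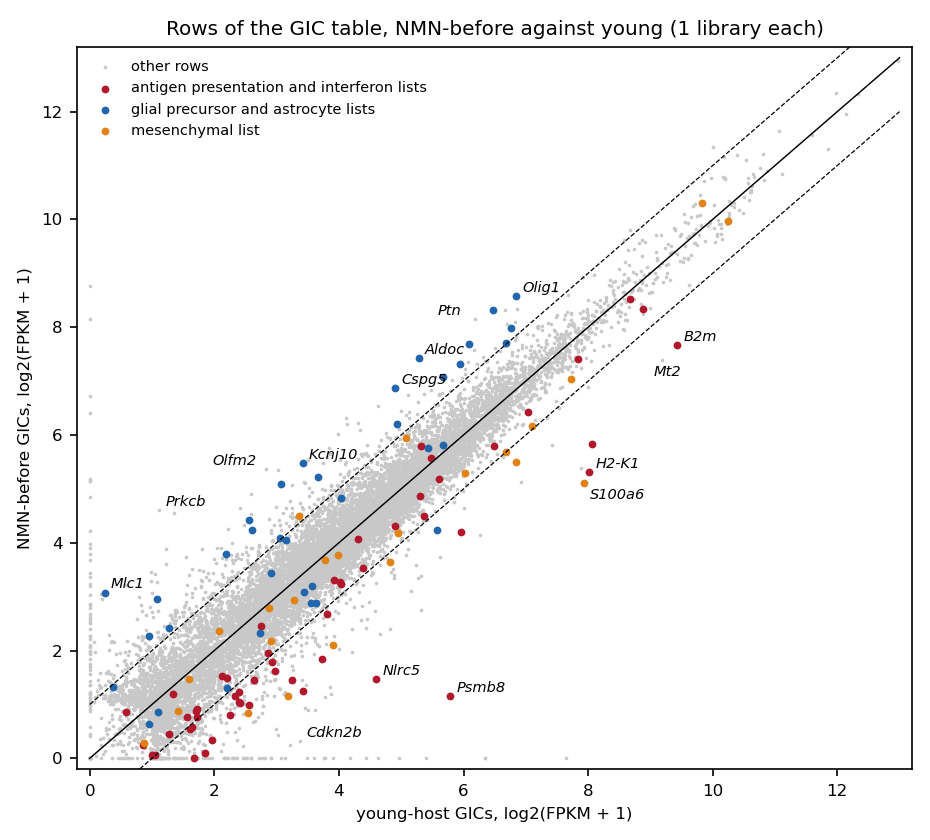
Each point is 1 measured row, with log2(FPKM + 1) in young GICs on the horizontal axis and in NMN-before GICs on the vertical axis; the solid line marks equal values and the dashed lines 2-fold differences. Most antigen presentation and interferon genes (red), with Psmb8 at -4.63 and Nlrc5 at -3.13, lie below the line, and most genes of the glial precursor and astrocyte lists (blue), with Mlc1 at 2.84 and Aldoc at 2.14, lie above it.

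**Figure D2:**
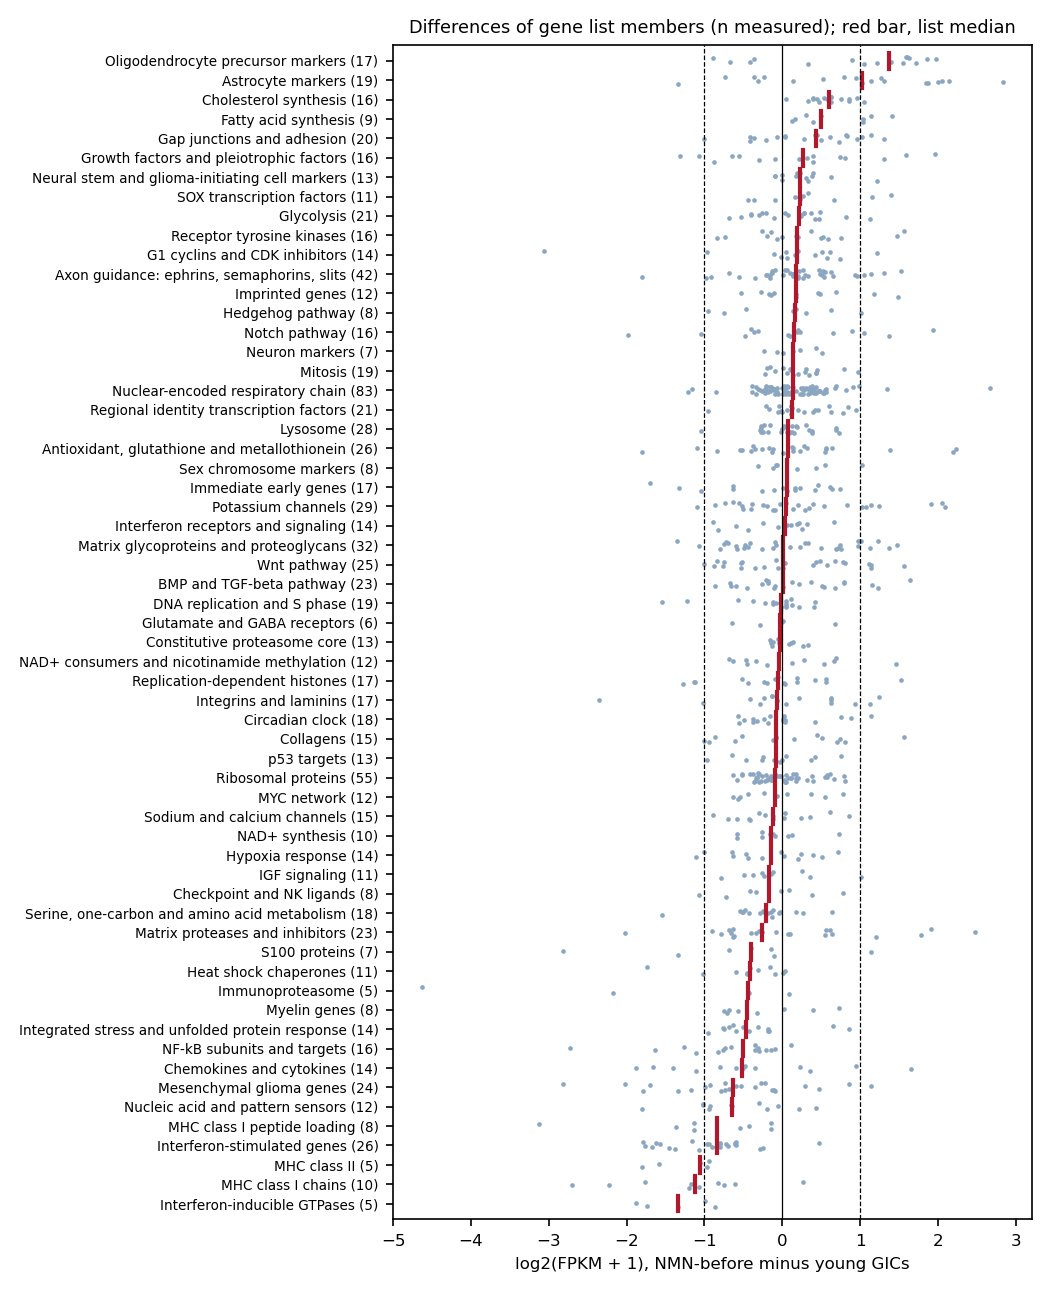
Log2(FPKM + 1) difference, NMN-before minus young GICs, of each measured member (points, jittered in height) of the gene lists with 5 or more measured members, sorted by the list median (red bar). The medians run from -1.34 for interferon-inducible GTPases to 1.37 for oligodendrocyte precursor markers, and most lists lie near 0.

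MHC class I chains were lower in NMN-before GICs. The classical heavy chain gene H2-K1 (chromosome 17 at 33996017 to 34000347, minus strand) was at 38.7 FPKM in NMN-before GICs, against 182 in old and 258 in young GICs. The other classical chain gene, H2-D1 (chromosome 17 at 35262730 to 35267499, plus strand), was at 56.2 FPKM in NMN-before GICs, against 199.9 in old and 265 in young GICs. The light chain B2m (chromosome 2 at 122147686 to 122153083, plus strand), which every class I heavy chain needs to reach the surface, was at 202 FPKM in NMN-before GICs, against 547 in old and 689 in young GICs. NMN-before GICs were the lowest of the 3 libraries for these 3 genes, with differences from young GICs of -2.70, -2.22 and -1.77, while old GICs lay nearer to young GICs (-0.50, -0.41 and -0.33). The nonclassical gene H2-M3, whose product presents formylated peptides, was at 1.73 FPKM in NMN-before GICs, against 3.75 in old and 5.24 in young GICs, and H2-T23, a ligand gene for natural killer receptors, at 1.23 FPKM in NMN-before GICs, against 2.83 in old and 4.04 in young GICs. Of 10 measured chain genes, 9 were lower and 6 2-fold lower, beside the 3.04% of all rows. Their median was -1.12 (-0.18 for old minus young GICs, and -1.21 with the GC trend removed). The exception, H2-Q7, was at 0.813 FPKM in NMN-before and 0.504 in young GICs. Fragments of these near-identical H2 genes can be split between rows, so single values of this family are uncertain; B2m has no such relative on the list.

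The genes that load MHC class I were lower too. Nlrc5 (chromosome 8 at 94434356 to 94527272, plus strand), the transactivator of MHC class I genes, was at 1.77 FPKM in NMN-before GICs, against 20.2 in old and 23.2 in young GICs, a difference of -3.13. The peptide transporter subunit gene Tap1 (chromosome 17 at 34187553 to 34197225, plus strand) was at 5.41 FPKM in NMN-before GICs, against 9.70 in old and 13.02 in young GICs, and its partner Tap2 (chromosome 17 at 34203527 to 34216321, plus strand) at 2.06 FPKM in NMN-before GICs, against 8.52 in old and 6.84 in young GICs. Both subunits are needed to move peptides. Erap1, the aminopeptidase that trims peptides in the endoplasmic reticulum, was at 2.46 FPKM in NMN-before GICs, against 6.95 in old and 6.62 in young GICs. Calreticulin, Calr, a chaperone that folds the heavy chain, was at 323 FPKM in NMN-before GICs, against 512 in old and 471 in young GICs. All 8 measured members were lower, and 4 were 2-fold lower; the median was -0.84 (0.03 for old minus young). Tapbp, the tapasin gene, shares its row with Zbtb22, and that row was at 16.5 FPKM in NMN-before and 16.02 in young GICs.

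Within the proteasome, the lower values were those of the interferon-induced catalytic subunits. Psmb8 (chromosome 17 at 34197721 to 34201454, plus strand), the immunoproteasome counterpart of Psmb5, was at 1.23 FPKM in NMN-before GICs, against 65.3 in old and 54.0 in young GICs. No other protein-coding row that reached 5 FPKM in either library had a difference as low as its -4.63. Psmb9 (chromosome 17 at 34181987 to 34187764, minus strand), the counterpart of Psmb6, was at 1.36 FPKM in NMN-before GICs, against 11.1 in old and 9.71 in young GICs. Psmb10, the counterpart of Psmb7, did not follow and was at 46.7 FPKM in NMN-before GICs, against 43.9 in old and 43.7 in young GICs. The activator subunits Psme1 and Psme2 differed by -0.44 and -0.43. The constitutive subunits lay close together in all 3 libraries. Psmb6 was at 223 FPKM in NMN-before, 203 in old and 186 in young GICs, Psmb7 at 171 FPKM in NMN-before, 202 in old and 185 in young GICs, and the row shared by Psmb5 and Mir686 at 109 FPKM in NMN-before, 119 in old and 98.7 in young GICs. Of 13 measured genes of the constitutive core, none was 2-fold different, and their median was -0.03. Psmb8 and Tap2 lie in 1 locus of the deposited table, as do Psmb9 and Tap1, so the assignment of fragments within each pair is uncertain.

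**Figure D3:**
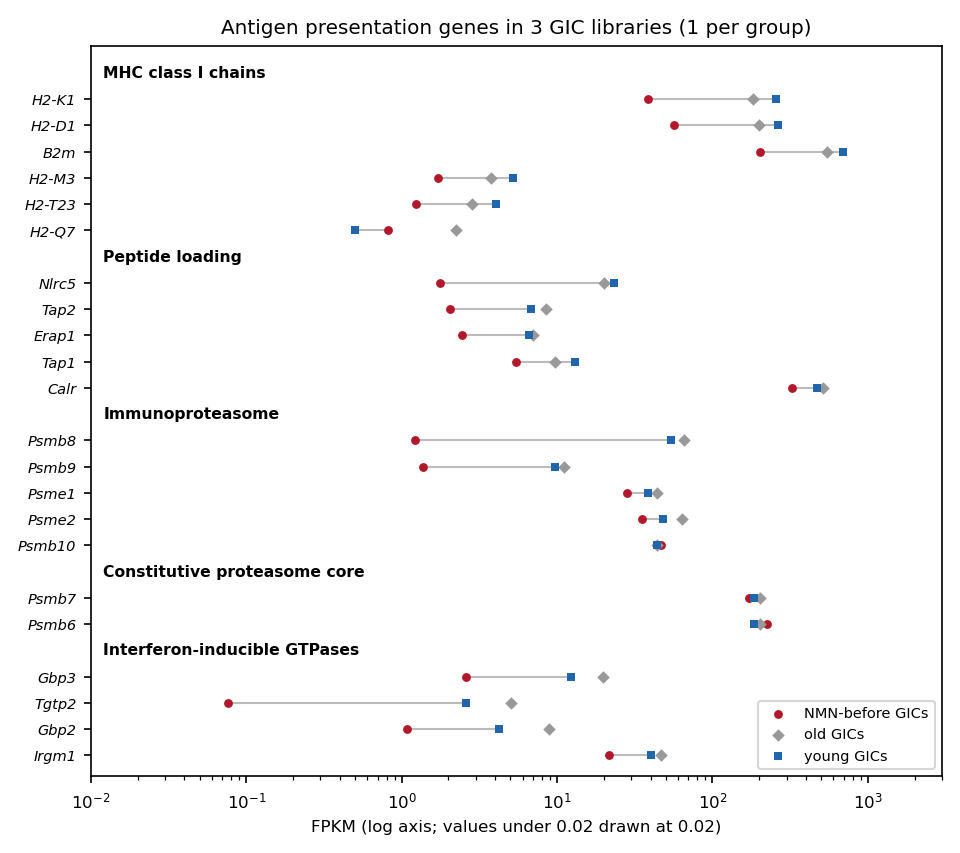
FPKM (log axis) of the antigen presentation genes given in the text, in NMN-before (red circles), old (grey diamonds) and young (blue squares) GICs, 1 library each, with a line from NMN-before to young. Psmb8 spans 1.23 to 54.0 FPKM and Nlrc5 1.77 to 23.2, while the points of each constitutive proteasome subunit nearly coincide.

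The promoters of immune list members were read for the letters of the 2 interferon motifs. Each window is 60 bases from the RefSeq promoter table (build GRCm38.p6), written from 5′ to 3′ on the gene's strand, and capitals mark the motif named on its line, the ISRE letters (GAAA, any 2 bases, GAAA) or the GAS letters (TTC, any 3 bases, GAA) on either strand. The windows were chosen to show the motif in genes of different roles: B2m in antigen presentation, Bst2, Isg15, Tgtp2 and Gbp3 in antiviral defence, Cxcl10 as a chemokine, and Psmb8 and Icam1 as lower genes whose promoters held GAS letters.
B2m, ISRE, chr2:122147528-122147587, plus strand: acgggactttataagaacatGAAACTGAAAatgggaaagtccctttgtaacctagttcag
Gbp3, ISRE, chr3:142559979-142560038, plus strand: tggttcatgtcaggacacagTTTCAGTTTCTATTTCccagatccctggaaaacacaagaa
Isg15, ISRE, chr4:156200857-156200916, minus strand: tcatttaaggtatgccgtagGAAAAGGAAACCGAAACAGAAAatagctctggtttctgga
Cxcl10, ISRE, chr5:92349063-92349122, minus strand: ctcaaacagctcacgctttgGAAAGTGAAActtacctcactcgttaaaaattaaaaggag
Bst2, ISRE, chr8:71537563-71537622, minus strand: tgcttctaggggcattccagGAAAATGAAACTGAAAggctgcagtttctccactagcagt
Tgtp2, ISRE, chr11:49064243-49064302, minus strand: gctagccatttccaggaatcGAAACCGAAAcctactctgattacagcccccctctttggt
Icam1, GAS, chr9:21015878-21015937, plus strand: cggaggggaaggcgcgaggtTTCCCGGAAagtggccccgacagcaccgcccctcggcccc
Psmb8, GAS, chr17:34198078-34198137, plus strand: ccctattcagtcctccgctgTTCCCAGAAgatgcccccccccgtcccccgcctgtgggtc

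In B2m the ISRE letters lie at -139 to -130 and in Tgtp2 at -70 to -61, counted from the gene's RefSeq start as 0. In Isg15, Bst2 and Gbp3 matches overlap into a longer run. In Psmb8 the GAS letters lie at -97 to -89 from a RefSeq start that is inside the GENCODE span given above. The Psmb8 window therefore lies within that span, which begins at 34197721, and not upstream of it. GAS letters, not put in capitals, also stand at -136 to -128 in Bst2, where they overlap the ISRE letters, and at -81 to -73 in Tgtp2. Of the 39 immune list members 2-fold lower in NMN-before GICs, 31 were matched in the promoter table, and 10 of these (32.3%) held ISRE letters in the 300 bases read. Of the 80 matched immune list members that were not 2-fold lower, 18 (22.5%) held them, as did 3.99% of all 27025 genes in the table. GAS letters stood in 5 of 31 (16.1%) and 16 of 80 (20%), beside 9.55% of all genes. Over all rows that name 1 gene, ISRE letters stood in 15 of 192 (7.81%) matched genes that were 2-fold lower, 10 of them the immune list members already counted, in 9 of 261 (3.45%) that were 2-fold higher and in 3.29% of all matched measured genes. Outside the immune lists, 5 of 161 matched genes that were 2-fold lower (3.11%) held them. A match of letters is a description, not a site.

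Interferon-stimulated genes were lower as a group. Bst2, tetherin, which holds budding virus at the cell surface, was at 17.3 FPKM in NMN-before GICs, against 56.2 in old and 61.4 in young GICs. Lgals3bp, a secreted glycoprotein, was at 1.73 FPKM in NMN-before GICs, against 7.20 in old and 8.47 in young GICs. Isg15, a ubiquitin-like modifier, was at 0.980 FPKM in NMN-before GICs, against 3.04 in old and 4.89 in young GICs. For these 3 genes old GICs stood nearer to young than to NMN-before GICs. The antiviral gene Parp12 was at 0.265 FPKM in NMN-before and 2.88 in young GICs, and Oasl2, an oligoadenylate synthetase relative, was listed at 0 in NMN-before GICs and at 2.19 FPKM in young GICs. Of 26 measured members of 44 listed, 25 were lower, 9 of them by 2-fold, and the median was -0.84 (-0.12 for old minus young, -0.88 with the GC trend removed). Shisa5, an apoptosis gene of the endoplasmic reticulum, was the exception among these 26. It was at 54.3 FPKM in NMN-before GICs, against 35.8 in old and 38.9 in young GICs. Another 5 listed genes share rows with other genes. Those rows differed from young GICs by -1.66 (Rtp4), -1.32 (Sp100), -0.30 (Herc6), 0.03 (Ifitm2) and 0.55 (Uba7, with Ip6k1 and others). The interferon-induced transmembrane gene Ifitm3, chosen after its values were seen, was at 85.2 FPKM in NMN-before, 161 in old and 130.5 in young GICs.

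The interferon-inducible GTPases, which attack the vacuoles of intracellular pathogens, had the lowest median of any list with 5 or more measured members, -1.34, and the old GICs stood on the other side (0.75 for old minus young). Gbp3, a guanylate-binding protein, was at 2.61 FPKM in NMN-before GICs, against 19.8 in old and 12.2 in young GICs, and its relative Gbp2 at 1.08 FPKM in NMN-before GICs, against 8.91 in old and 4.25 in young GICs. Irgm1, which regulates the other immunity-related GTPases, was at 21.6 FPKM in NMN-before GICs, against 46.6 in old and 40.3 in young GICs. Tgtp2, an effector of that family, was at 0.0767 FPKM in NMN-before GICs, against 5.04 in old and 2.60 in young GICs. All 5 measured members were lower, 3 by 2-fold, and old GICs were the highest of the 3 libraries for each member named here. Another 10 of the 17 listed genes share rows with other genes, and the rows named next were chosen after their values were seen. The row of Igtp and Irgm2 was at 1.56 FPKM in NMN-before GICs, against 19.2 in old and 10.03 in young GICs. That of Ifi47 and Olfr56 was at 0.461 FPKM in NMN-before GICs, against 11.9 in old and 6.94 in young GICs. Smaller differences from young GICs were those of the rows of Gbp4, Gbp8 and Gbp9 (-0.33), Gbp6, Gbp10 and Gm43302 (-0.49), and Gbp7 and Gm43802 (-1.02). The row of Tgtp1 and Gm12185 stayed under 1 FPKM in each GIC library. With a pseudocount of 0.1 in place of 1 FPKM, the median was -2.19 here and -1.47 for the interferon-stimulated genes. Fragments can be misassigned among these near-identical paralogs.

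Receptors and transducers of interferon centred near 0. Of 14 measured genes none was 2-fold different, 8 were higher and 6 lower, and the median was 0.04. Irf1, a transcription factor that interferon gamma induces and that drives MHC class I genes, was at 13.22 FPKM in NMN-before GICs, against 29.9 in old and 25.4 in young GICs. The feedback inhibitor gene Socs1 was at 0.470 FPKM in NMN-before GICs, against 1.63 in old and 1.61 in young GICs. Stat2, a component of the ISRE-binding complex, lay the other way at 5.59 FPKM in NMN-before GICs, against 5.61 in old and 3.15 in young GICs. Stat2 sits on chromosome 10, whose rows were shifted upwards as a whole, as described with the chromosomes. The row of Irf9, the DNA-binding part of the ISRE complex, and Rnf31 was at 13.8 FPKM in NMN-before GICs, against 10.5 in old and 10.9 in young GICs.

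Of 12 measured nucleic acid and pattern sensors, adaptors and kinases, several of which are interferon-stimulated themselves, 10 were lower, with a median of -0.65. The difference was 2-fold for 3 of them, beside 3.04% of all rows. The RNA sensor Ifih1 was at 0.969 FPKM in NMN-before GICs, against 6.06 in old and 5.84 in young GICs, and its relative Ddx58, which encodes RIG-I, at 3.65 FPKM in NMN-before GICs, against 8.74 in old and 7.82 in young GICs. Ticam1, an adaptor of Toll-like receptors, was at 4.67 FPKM in NMN-before GICs, against 3.30 in old and 3.18 in young GICs. Besides Ifih1, the members 2-fold lower were Zbp1, a sensor listed at 0 in NMN-before GICs, at 1.99 FPKM in old and 1.03 in young GICs, and the kinase gene Ikbke, at 0.891 FPKM in NMN-before GICs, against 1.42 in old and 2.81 in young GICs.

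Most NF-kB targets, chemokines and MHC class II genes were lower with them. Icam1, a ligand of leukocyte integrins, was at 0.852 FPKM in NMN-before GICs, against 6.72 in old and 11.2 in young GICs. Vcam1, another such ligand, was at 11.1 FPKM in NMN-before GICs, against 46.2 in old and 36.7 in young GICs. Of 16 measured NF-kB genes 15 were lower, 4 by 2-fold beside 3.04% of all rows, with a median of -0.51. The subunit gene Rela was the exception at 19.6 FPKM in NMN-before GICs, against 15.3 in old and 18.05 in young GICs, and its difference of 0.11 was -0.01 with the GC trend removed.

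Cxcl10, which attracts T cells, was at 12.4 FPKM in NMN-before GICs, against 50.4 in old and 48.3 in young GICs, and Ccl5, which does so too, at 1.27 FPKM in NMN-before GICs, against 11.2 in old and 6.15 in young GICs. Il18, a cytokine of the interleukin-1 family, was instead higher at 10.2 FPKM in NMN-before GICs, against 3.70 in old and 2.54 in young GICs. Among 14 measured chemokines and cytokines 10 were lower and 4 higher (median -0.51). Of these, 4 were 2-fold lower and 1 2-fold higher, beside 3.04% and 3.58% of all rows. The cytokine gene Kitl was also higher, with a difference of 0.94.

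MHC class II genes, usually a property of antigen-presenting cells, were low in all GICs. H2-Ab1, a class II beta chain, was at 1.14 FPKM in NMN-before GICs, against 2.61 in old and 5.39 in young GICs, and H2-DMb1, which helps load class II, at 0.966 FPKM in NMN-before GICs, against 2.70 in old and 5.88 in young GICs. H2-Aa, a class II alpha chain, was listed at 0 in NMN-before GICs and at 0.957 FPKM in young GICs. All 5 measured members were lower, 3 by 2-fold (median -1.06, and -2.49 with a pseudocount of 0.1 FPKM). H2-Eb1, 1 of these 3 and the median itself, passed the filter only through young GICs. It was at 1.29 FPKM there and at 0.0973 in NMN-before GICs. H2-Aa passed only through old GICs, at 1.15 FPKM. The count and the median thus rest in part on the filter. The class II transactivator Ciita stayed under 1 FPKM in each library. Among surface ligands, Cd47, which restrains phagocytosis, was at 9.96 FPKM in NMN-before GICs, against 19.4 in old and 22.05 in young GICs, and Cd274, the checkpoint ligand gene, at 0.589 FPKM in NMN-before GICs, against 1.01 in old and 1.63 in young GICs. Cd24a, another signal that restrains phagocytosis, lay the other way at 93.1 FPKM in NMN-before GICs, against 82.4 in old and 53.8 in young GICs, as did Ulbp1, a ligand of the NK receptor NKG2D, at 10.7 FPKM in NMN-before GICs, against 6.96 in old and 7.998 in young GICs; both genes sit on chromosome 10. The row of H60b, Raet1d and Raet1e, further NKG2D ligands on that chromosome, was at 32.1 FPKM in NMN-before GICs, against 12.4 in old and 20.8 in young GICs. Of 8 measured checkpoint and NK ligands 3 were higher and 5 lower, 1 by 2-fold, with a median of -0.18.

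Genes of oligodendrocyte precursors were higher in NMN-before GICs. Olig1, a transcription factor of this lineage, was at 379.9 FPKM in NMN-before GICs, against 132 in old and 114 in young GICs, and its neighbor Olig2 at 254 FPKM in NMN-before GICs, against 136 in old and 108 in young GICs. Cspg5 (chromosome 9 at 110243783 to 110262576, plus strand), a brain proteoglycan, was at 117 FPKM in NMN-before GICs, against 20.03 in old and 28.8 in young GICs. Cspg4, which encodes the NG2 proteoglycan, was at 36.3 FPKM in NMN-before GICs, against 8.27 in old and 11.7 in young GICs. Old GICs stood within 2-fold of young GICs for these 4 genes, while NMN-before GICs were above both. Sox8, a SOX factor, was at 134 FPKM in NMN-before GICs, against 50.1 in old and 49.96 in young GICs. The protocadherin gene Pcdh15, on chromosome 10, was at 20.4 FPKM in NMN-before GICs, against 7.83 in old and 4.90 in young GICs. Of 17 measured members 13 were higher, 11 by 2-fold beside 3.58% of all rows, and none was 2-fold lower. The median was 1.37, against 0.20 for old minus young. It was 1.15 with the GC trend removed, and 1.14 over the 14 members off chromosomes 6 and 10.

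Defining genes of the lineage did not all take part. Sox10, which directs the lineage, was listed at 0 FPKM in NMN-before and 0.245 in young GICs, and the row of the growth factor receptor gene Pdgfra and Mir7025 was at 13.9 FPKM in NMN-before, 14.9 in old and 13.18 in young GICs. C1ql1, a secreted C1q-like protein, was at 6.34 FPKM in NMN-before GICs, against 13.3 in old and 10.7 in young GICs. Rlbp1, a retinoid carrier, was at 1.48 FPKM in NMN-before GICs, against 2.97 in old and 3.60 in young GICs. Genes of mature myelin had a median of -0.45, with none of the 8 measured 2-fold apart. Bcas1, a gene of newly formed oligodendrocytes, was at 67.4 FPKM in NMN-before, 51.3 in old and 40.2 in young GICs, and the deacetylase gene Sirt2 at 30.8 FPKM in NMN-before, 44.7 in old and 50.05 in young GICs.

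Most measured astrocyte genes were higher next to them, but defining genes did not all take part. Mlc1 (chromosome 15 at 88955884 to 88979007, minus strand), a membrane protein of astrocyte endfeet, was at 7.43 FPKM in NMN-before GICs, against 0.935 in old and 0.179 in young GICs. The glycolytic enzyme gene Aldoc was at 170.4 FPKM in NMN-before GICs, against 40.8 in old and 37.8 in young GICs. Kcnj10, an inward rectifier that clears potassium, was at 43.4 FPKM in NMN-before GICs, against 6.11 in old and 9.67 in young GICs, and Atp1b2, a sodium pump subunit, at 32.9 FPKM in NMN-before GICs, against 4.02 in old and 7.45 in young GICs. NMN-before GICs were the highest of the 3 libraries for each, and old GICs lay within 2-fold of young GICs for Aldoc, Kcnj10 and Atp1b2. For Mlc1 they did so only because 1 FPKM is added to both values. Its plain FPKM in old GICs was several-fold that in young GICs. Of 19 measured members 14 were higher, 10 by 2-fold, and 1, the secreted chaperone gene Clu, was 2-fold lower at 17.98 FPKM in NMN-before GICs, against 31.8 in old and 46.9 in young GICs. The list median was 1.02 (0.05 for old minus young, and 0.87 over the 16 members off chromosomes 6 and 10). Gfap, the filament gene of mature astrocytes, was at 6.41 FPKM in NMN-before GICs, against 3.21 in old and 11.4 in young GICs, and the water channel gene Aqp4 was listed at 0 in NMN-before GICs and at 0.0319 FPKM in young GICs. The row of Aldh1l1 and RP24-457L7.3 was at 1.02 FPKM in NMN-before, 1.05 in old and 0.919 in young GICs. That of Glul and Mir8114 was at 39.3 FPKM in NMN-before, 48.6 in old and 40.7 in young GICs. Fabp7 and Slc1a3 were chosen after their values were seen. Fabp7, a fatty acid binding protein of radial glia on chromosome 10, was at 320.2 FPKM in NMN-before GICs, against 135 in old and 88.2 in young GICs, and the glutamate transporter gene Slc1a3 at 207 FPKM in NMN-before GICs, against 123 in old and 101 in young GICs. Among SOX factors, Sox5 was at 11.8 FPKM in NMN-before GICs, against 4.29 in old and 4.73 in young GICs and Sox9 at 7.47 FPKM in NMN-before GICs, against 8.89 in old and 9.89 in young GICs.

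**Figure D4:**
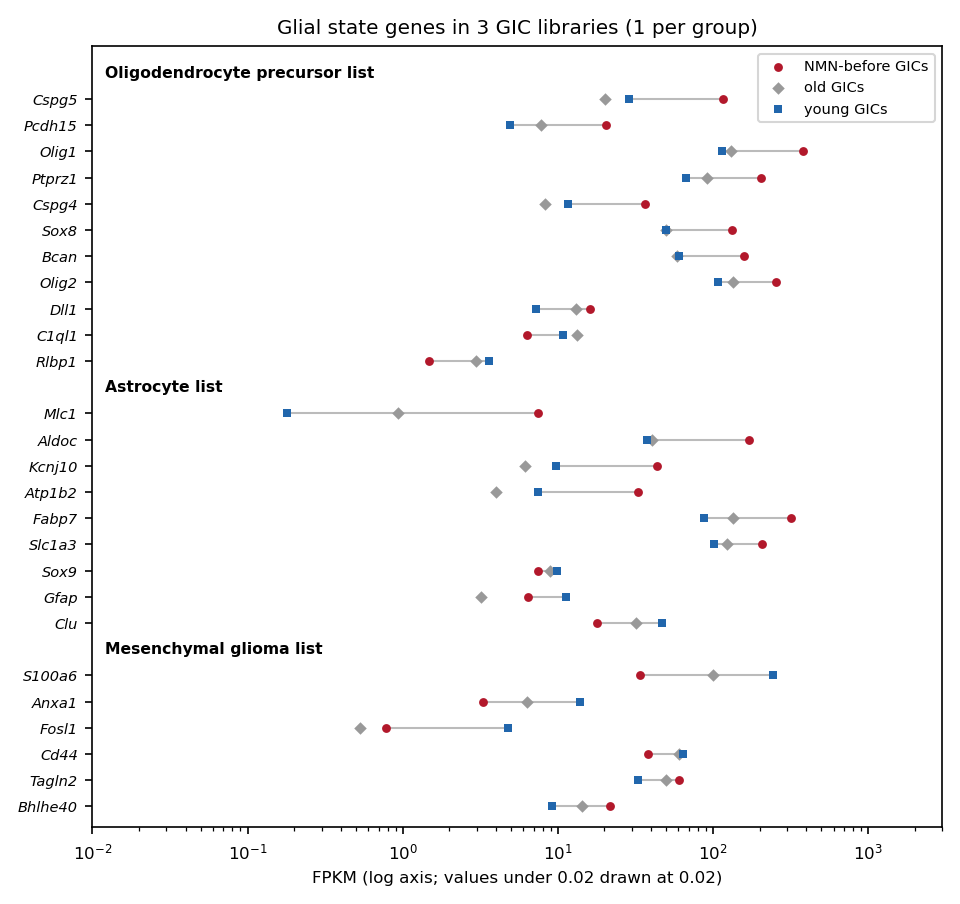
FPKM (log axis) of oligodendrocyte precursor, astrocyte and mesenchymal list members given in the text, in NMN-before (red circles), old (grey diamonds) and young (blue squares) GICs, 1 library each. Cspg5 is at 117 FPKM in NMN-before and 28.8 in young GICs, and S100a6 at 33.7 in NMN-before and 244 in young GICs.

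Mesenchymal glioma genes were lower. S100a6 (chromosome 3 at 90612882 to 90624181, plus strand), a calcium-binding protein, was at 33.7 FPKM in NMN-before GICs, against 99.9 in old and 244 in young GICs. Anxa1, an annexin, was at 3.32 FPKM in NMN-before GICs, against 6.31 in old and 13.99 in young GICs. For both genes the old GICs lay between the other 2 libraries. For Fosl1, an AP-1 subunit, they did not: it was at 0.781 FPKM in NMN-before GICs, against 0.528 in old and 4.79 in young GICs. Of 24 measured members 20 were lower, 6 by 2-fold, and the median was -0.63 (-0.32 for old minus young). The hyaluronan receptor gene Cd44, a marker of this state, was at 38.1 FPKM in NMN-before GICs, against 60.7 in old and 63.8 in young GICs. Bhlhe40, a transcription factor, was the 1 member 2-fold higher, at 21.6 FPKM in NMN-before GICs, against 14.4 in old and 9.23 in young GICs, and the actin-binding gene Tagln2 was at 60.3 FPKM in NMN-before GICs, against 50.01 in old and 32.7 in young GICs. Other members share rows. The row of Spp1, osteopontin, and Gm42793 was at 40.9 FPKM in NMN-before GICs, against 97.3 in old and 237 in young GICs, and that of S100a4, S100a3 and Gm42674 at 2.91 FPKM in NMN-before GICs, against 9.77 in old and 17.6 in young GICs. The row of Anxa3, an annexin, and Gm42603 lay the other way, at 3.84 FPKM in NMN-before GICs, against 0.603 in old and 0.791 in young GICs. Beside these genes, of the fibroblast markers Col1a1, a collagen, was at 1.34 FPKM in NMN-before GICs, against 1.02 in old and 2.34 in young GICs, the extracellular matrix gene Fbln1 at 14.05 FPKM in NMN-before GICs, against 16.8 in old and 9.64 in young GICs, and the row of the collagen gene Col3a1 and AC125167.1 at 1.28 FPKM in NMN-before GICs, against 2.85 in old and 7.73 in young GICs. The part of fibroblast RNA in the mesenchymal values was not tested.

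Matrix genes went both ways, with 5 of 32 measured glycoprotein and proteoglycan genes 2-fold higher, 2 lower by as much and a median of 0.01. Among all rows the shares were 3.58% and 3.04%. Brevican, Bcan, a proteoglycan of the brain matrix, was at 158 FPKM in NMN-before GICs, against 59.0 in old and 60.6 in young GICs. Agrin, Agrn, was at 49.8 FPKM in NMN-before GICs, against 22.1 in old and 20.7 in young GICs, and Loxl3, a crosslinking enzyme on chromosome 6, at 7.98 FPKM in NMN-before GICs, against 4.34 in old and 2.22 in young GICs. Lower were biglycan, Bgn, at 10.4 FPKM in NMN-before GICs, against 9.99 in old and 28.1 in young GICs, and the link protein gene Hapln1 at 17.5 FPKM in NMN-before GICs, against 25.1 in old and 37.6 in young GICs. Among collagens, Col11a1 of fibrils was at 36.1 FPKM in NMN-before GICs, against 15.6 in old and 11.6 in young GICs, and Col6a1, of microfibrils, at 7.12 FPKM in NMN-before GICs, against 7.97 in old and 15.4 in young GICs.

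Genes that cut or hold the matrix were also divided. Timp4 (chromosome 6 at 115241892 to 115252205, minus strand), an inhibitor of matrix proteases, was at 10.04 FPKM in NMN-before GICs, against 2.05 in old and 0.976 in young GICs. The membrane protease gene Mmp15 was at 91.7 FPKM in NMN-before GICs, against 16.9 in old and 23.7 in young GICs, and Adam12, another membrane protease, at 49.4 FPKM in NMN-before GICs, against 17.4 in old and 13.6 in young GICs. Serpine2, a thrombin inhibitor, was at 406 FPKM in NMN-before GICs, against 154 in old and 175 in young GICs. Itga8, an integrin chain, was lower at 3.95 FPKM in NMN-before GICs, against 13.8 in old and 24.4 in young GICs, and Itgb5, another chain, was higher at 3.41 FPKM in NMN-before GICs, against 1.93 in old and 0.856 in young GICs.

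Cell cycle genes differed little as groups. Mki67, the usual marker of cycling cells, was at 58.6 FPKM in NMN-before, 65.3 in old and 54.3 in young GICs. Of 19 measured mitosis genes 15 were higher but none by 2-fold (median 0.14, and 0.45 for old minus young). The mitotic cyclin gene Ccnb2 was at 15.998 FPKM in NMN-before GICs, against 15.5 in old and 7.67 in young GICs, and its kinase Cdk1, on chromosome 10, at 254 FPKM in NMN-before GICs, against 226 in old and 146 in young GICs. DNA replication genes had a median of -0.01, and the 2 members 2-fold lower were the E cyclins, which drive entry into S phase. Ccne1 was at 13.9 FPKM in NMN-before GICs, against 32.8 in old and 33.7 in young GICs, and Ccne2 at 9.19 FPKM in NMN-before GICs, against 19.96 in old and 28.7 in young GICs.

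Inhibitors of G1 kinases were split. Cdkn2b (chromosome 4 at 89306299 to 89311039, minus strand), which encodes p15, an inhibitor of CDK4 and CDK6, was at 0.244 FPKM in NMN-before GICs, against 1.65 in old and 9.34 in young GICs. The relative Cdkn2c, encoding p18, lay the other way at 21.1 FPKM in NMN-before GICs, against 13.8 in old and 8.45 in young GICs. Cdkn1a, encoding p21, was at 17.9 FPKM in NMN-before GICs, against 30.1 in old and 36.1 in young GICs. Cdk4, a target of p15 and p18 on chromosome 10, was at 754 FPKM in NMN-before GICs, against 589 in old and 450.0 in young GICs.

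Lipid synthesis genes were higher, mostly by less than 2-fold. All 16 measured cholesterol genes were higher in NMN-before GICs, with a median of 0.60, and the list stood at 0.38 for old minus young. Mvk, mevalonate kinase, was the 1 member 2-fold apart, at 42.7 FPKM in NMN-before GICs, against 31.6 in old and 20.04 in young GICs. Srebf2, the main regulator of the pathway, was at 76.0 FPKM in NMN-before GICs, against 49.8 in old and 41.6 in young GICs. All 9 measured fatty acid genes were higher, 4 by 2-fold beside 3.58% of all rows (median 0.50, and 0.42 for old minus young). These 4 were an acetyl-CoA synthetase gene and 3 desaturase genes. Acss2, the synthetase, was at 8.95 FPKM in NMN-before GICs, against 5.36 in old and 2.76 in young GICs. Fads1 was at 83.2 FPKM in NMN-before GICs, against 46.6 in old and 37.1 in young GICs, Fads2 at 71.0 FPKM in NMN-before GICs, against 65.6 in old and 34.1 in young GICs, and Scd1 at 61.1 FPKM in NMN-before GICs, against 43.0 in old and 29.3 in young GICs.

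Glycolysis genes had a median of 0.21, which was -0.21 once the 8 members on chromosomes 6 and 10 were left out. Pfkl, a phosphofructokinase on chromosome 10, was at 47.6 FPKM in NMN-before GICs, against 42.2 in old and 21.2 in young GICs. Gpi1, on chromosome 7, which catalyzes the step before it, was at 164 FPKM in NMN-before GICs, against 248 in old and 265 in young GICs.

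Few genes of NAD+ metabolism, into which NMN feeds, were 2-fold apart. Nampt, the enzyme that makes NMN in cells, was at 27.4 FPKM in NMN-before GICs, against 47.4 in old and 33.1 in young GICs. Of 10 measured synthesis genes none was 2-fold different and the median was -0.14. Nadsyn1, the last enzyme of the routes from nicotinic acid and tryptophan, was at 5.46 FPKM in NMN-before GICs, against 4.51 in old and 2.88 in young GICs, and Nmnat2, which turns NMN into NAD+, at 2.44 FPKM in NMN-before GICs, against 4.49 in old and 2.16 in young GICs. Among 12 measured consumers the median was -0.04. Sirt6, a deacetylase gene on chromosome 10, was the 1 member 2-fold different, at 9.84 FPKM in NMN-before GICs, against 7.14 in old and 2.93 in young GICs. Sirt1, another deacetylase gene on chromosome 10, was at 7.08 FPKM in NMN-before GICs, against 11.9 in old and 10.04 in young GICs, and Sirt5 at 3.81 FPKM in NMN-before GICs, against 3.04 in old and 6.44 in young GICs. The nicotinamide methyltransferase gene Nnmt and the NAD+ glycohydrolase gene Cd38 stayed under 1 FPKM in each GIC library.

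Stress genes were mostly lower. Of 14 measured genes of the integrated stress and unfolded protein responses 12 were lower, none by 2-fold (median -0.47). Herpud1, which helps degrade misfolded proteins, was at 22.99 FPKM in NMN-before GICs, against 35.7 in old and 45.4 in young GICs. Ddit3, a stress transcription factor on chromosome 10, was at 48.4 FPKM in NMN-before GICs, against 20.6 in old and 30.5 in young GICs. Heat shock chaperones had a median of -0.42, with 2 of 11 2-fold lower beside 3.04% of all rows. The inducible chaperone gene Hspa1b, whose fragments can be shared with its near copy Hspa1a, was at 1.46 FPKM in NMN-before GICs, against 1.71 in old and 7.23 in young GICs, and the small chaperone gene Cryab at 30.3 FPKM in NMN-before GICs, against 71.6 in old and 62.4 in young GICs.

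Detoxification genes were divided, with 3 of 26 2-fold higher and 2 2-fold lower, beside 3.58% and 3.04% of all rows. Their median was 0.07, and -0.12 without chromosome 10. Gstt1, a glutathione transferase on chromosome 10, was at 24.04 FPKM in NMN-before GICs, against 4.74 in old and 4.31 in young GICs, and Gstm1, of another class, at 78.2 FPKM in NMN-before GICs, against 19.6 in old and 16.3 in young GICs. The quinone reductase gene Nqo1 was at 23.9 FPKM in NMN-before GICs, against 7.40 in old and 8.501 in young GICs. Lower were the transferase gene Gsta4, at 9.91 FPKM in NMN-before GICs, against 19.2 in old and 22.3 in young GICs, and the metallothionein gene Mt2, whose product binds zinc and copper, at 167 FPKM in NMN-before GICs, against 305 in old and 584 in young GICs. Gstm1 and Gstm7 are close relatives, so fragments may be shared between them.

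In signaling pathways, single ligands, receptors and modifiers stood apart while list medians stayed near 0. Lfng, a sugar transferase that modifies Notch, was at 22.04 FPKM in NMN-before GICs, against 9.48 in old and 5.004 in young GICs. The related Mfng lay the other way at 3.08 FPKM in NMN-before GICs, against 19.4 in old and 15.1 in young GICs. The Notch ligand gene Dll1 was at 16.1 FPKM in NMN-before GICs, against 13.1 in old and 7.29 in young GICs, and the Notch target Hes5 at 3.77 FPKM in NMN-before GICs, against 1.92 in old and 0.838 in young GICs. Of 16 measured members of this pathway 3 were 2-fold higher and 2 2-fold lower, beside 3.58% and 3.04% of all rows (median 0.15).

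Growth factor and receptor genes went both ways. Of 16 measured growth factor genes 9 were higher and 7 lower, 3 2-fold higher and 2 2-fold lower. Their median was 0.27, and 0.06 over members off chromosomes 6 and 10. Of 16 measured receptor tyrosine kinases 10 were higher and 6 lower, 2 2-fold higher and 0 2-fold lower (median 0.19). Angptl2 was lower, at 6.58 FPKM in NMN-before GICs, against 12.1 in old and 14.9 in young GICs. Ptn, pleiotrophin, was at 283 FPKM in NMN-before GICs, against 112 in old and 71.8 in young GICs, and its receptor phosphatase Ptprz1, chosen after its values were seen, at 205 FPKM in NMN-before GICs, against 91.2 in old and 67.3 in young GICs. Both genes lie on chromosome 6. Ntrk3, a neurotrophin receptor, was at 20.7 FPKM in NMN-before GICs, against 10.6 in old and 6.34 in young GICs, and Erbb2, of the EGF receptor family, at 4.24 FPKM in NMN-before GICs, against 1.35 in old and 0.875 in young GICs. The EGF receptor ligand gene Tgfa, on chromosome 6, was at 12.1 FPKM in NMN-before GICs, against 4.09 in old and 3.34 in young GICs. Igfbp2, which binds insulin-like growth factors, was at 487 FPKM in NMN-before GICs, against 115 in old and 241 in young GICs, so that old GICs were the lowest of the 3 libraries. Of 11 measured genes of IGF signaling 3 were higher and 8 lower (median -0.16).

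Single genes of other pathways stood apart as well. The morphogen gene Bmp7 was at 5.66 FPKM in NMN-before GICs, against 5.38 in old and 1.14 in young GICs, and the Wnt receptor gene Fzd2 at 12.7 FPKM in NMN-before GICs, against 4.22 in old and 3.63 in young GICs. Smo, the hedgehog transducer on chromosome 6, was at 34.0 FPKM in NMN-before GICs, against 25.8 in old and 16.3 in young GICs. Among 42 measured axon guidance genes 4 were 2-fold higher and 1 2-fold lower. The ephrin receptor gene Ephb4 was at 8.95 FPKM in NMN-before GICs, against 2.55 in old and 2.44 in young GICs, and the lower one, Sema3e, a semaphorin, at 1.66 FPKM in NMN-before GICs, against 3.89 in old and 8.26 in young GICs. Of 29 measured genes of the potassium channel list 15 were higher and 14 lower, 7 2-fold higher and 1 2-fold lower, with a median of 0.05. Over all measured rows 3.58% were 2-fold higher and 3.04% 2-fold lower. Kcnip3, a channel-interacting protein, was at 73.5 FPKM in NMN-before GICs, against 22.9 in old and 18.8 in young GICs, and Kcnmb4, a channel subunit on chromosome 10, at 13.8 FPKM in NMN-before GICs, against 2.89 in old and 2.48 in young GICs. Another of the 2-fold higher members, Kcnmb4os2, is an antisense transcript and no channel, at 2.53 FPKM in NMN-before GICs, against 0.228 in old and 0.487 in young GICs. The lower member was the channel gene Kcnt2, at 0.118 FPKM in NMN-before GICs, against 0.148 in old and 1.40 in young GICs.

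Among protein-coding rows reaching 5 FPKM in either library, the highest difference was that of Prkcb (chromosome 7 at 122288751 to 122634402, plus strand), a protein kinase C isoform, at 23.5 FPKM in NMN-before GICs, against 4.03 in old and 1.16 in young GICs. Olfm2, a secreted olfactomedin, was at 40.2 FPKM in NMN-before GICs, against 3.57 in old and 6.14 in young GICs. The muscle-type respiratory subunit gene Cox6a2 was at 13.7 FPKM in NMN-before GICs, against 0.578 in old and 1.32 in young GICs. For Olfm2 and Cox6a2 the old GICs were the lowest of the 3 libraries. Pdpn, podoplanin, a membrane glycoprotein, was at 7.25 FPKM in NMN-before GICs, against 1.11 in old and 0.128 in young GICs, and the homeobox gene Dbx2 at 11.1 FPKM in NMN-before GICs, against 3.02 in old and 1.33 in young GICs. Lmo1, a transcriptional cofactor, was at 72.3 FPKM in NMN-before GICs, against 33.0 in old and 16.5 in young GICs, and the corepressor gene Tle6, on chromosome 10, at 168 FPKM in NMN-before GICs, against 45.8 in old and 39.0 in young GICs.

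In a pair of the 20 highest rows, old GICs stood beside NMN-before GICs. Ctsc, a lysosomal protease, was at 6.71 FPKM in NMN-before GICs, against 5.36 in old and 0.150 in young GICs. Cyct, a testis cytochrome c with relatives elsewhere in the genome, was at 7.20 FPKM in NMN-before and 6.06 in old GICs and listed at 0 in young GICs. Of the 20 highest rows, 4 lay on chromosome 10 and 4 on chromosome 7.

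The 20 lowest rows held genes outside the lists above beside those already named. Rtn4rl2, a Nogo receptor relative, was at 0.181 FPKM in NMN-before GICs, against 5.25 in old and 8.29 in young GICs. The giant scaffold gene Ahnak was at 1.21 FPKM in NMN-before GICs, against 6.06 in old and 12.7 in young GICs. Rbp4, the retinol carrier, was at 5.76 FPKM in NMN-before GICs, against 18.4 in old and 38.7 in young GICs, and Mfap4, of elastic fibers, at 1.29 FPKM in NMN-before GICs, against 4.31 in old and 13.6 in young GICs. Old GICs lay between the other 2 libraries for these 4 genes. For the amino acid transporter gene Slc38a4 they were the highest, at 4.33 FPKM in NMN-before GICs, against 27.5 in old and 20.6 in young GICs. The same held for Ly6e, an interferon-stimulated surface protein, at 0.620 FPKM in NMN-before GICs, against 8.94 in old and 5.31 in young GICs.

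The differences were not spread evenly over the genome. Among rows reaching 5 FPKM in either library, the 472 rows of chromosome 10 had a median of 0.53, and 90.7% of them were higher in NMN-before GICs. In contrast, the 8617 such rows off chromosomes 6 and 10 had a median of -0.01, with 48.6% higher. On chromosome 10, 60 rows (12.7%) were 2-fold higher, against 2.81% off chromosomes 6 and 10. The shift ran along the whole chromosome, with medians of 0.42, 0.57, 0.61, 0.47 and 0.50 over 5 successive parts of its rows. It was 0.50 with the GC trend removed. In old minus young GICs the chromosome 10 median was 0.24, with 80.5% of rows higher; these 2 comparisons share the young library. In the tumor table the NMN-before minus young median of chromosome 10 was 0.07.

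Chromosome 6 showed a smaller shift of the same sign, with a median of 0.30 over 487 rows, 80.3% of them higher, and 5 successive parts from 0.24 to 0.42. Its median was 0.10 for old minus young GICs and -0.01 in the tumor table. Abundant genes of chromosome 10 took part. The ribosomal protein gene Rps12 was at 2349.9 FPKM in NMN-before GICs, against 1659 in old and 1348 in young GICs, and Rps26 at 1751 FPKM in NMN-before GICs, against 1188 in old and 1004 in young GICs. The ribosomal list as a whole had a median of -0.09, and of -0.12 over its members off chromosomes 6 and 10. Ndufs7, a subunit of respiratory complex I on chromosome 10, was at 96.7 FPKM in NMN-before GICs, against 57.2 in old and 37.5 in young GICs, and Atp5d, of the ATP synthase, also there, at 225 FPKM in NMN-before GICs, against 162 in old and 113 in young GICs. Not all genes of the chromosome were higher: Col6a1 and Sirt1, given above, and Tnfaip3, an NF-kB inhibitor at 1.90 FPKM in NMN-before GICs, against 3.74 in old and 5.22 in young GICs, were lower. Without chromosomes 6 and 10, 350 of 11555 rows were 2-fold higher and 374 lower.

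For each chromosome the run of 30 neighboring rows with the median farthest from 0 was taken, so each is an extreme. Chromosome 8 held one, 70302518 to 71409904, with a median of 0.48 (0.32 with the GC trend removed, and -0.10 for old minus young). That of chromosome 7, 35046422 to 44262720, had a median of -0.44 (-0.47 with the GC trend removed, and -0.04 for old minus young), and that of chromosome 17 a median of 0.38. On the X chromosome 303 rows had a median of -0.12 (-0.06 with the GC trend removed), while old minus young stood at 0.27 with 83.5% of rows higher. All 8 rows of the Y chromosome were higher, with a median of 1.20 (0.55 over the 5 protein-coding rows of 1 gene). The demethylase gene Kdm5d was at 15.8 FPKM in NMN-before GICs, against 10.7 in old and 7.29 in young GICs, the translation factor gene Eif2s3y at 54.4 FPKM in NMN-before GICs, against 41.1 in old and 37.0 in young GICs, and the RNA helicase gene Ddx3y at 28.2 FPKM in NMN-before GICs, against 27.3 in old and 20.7 in young GICs.

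**Figure D5:**
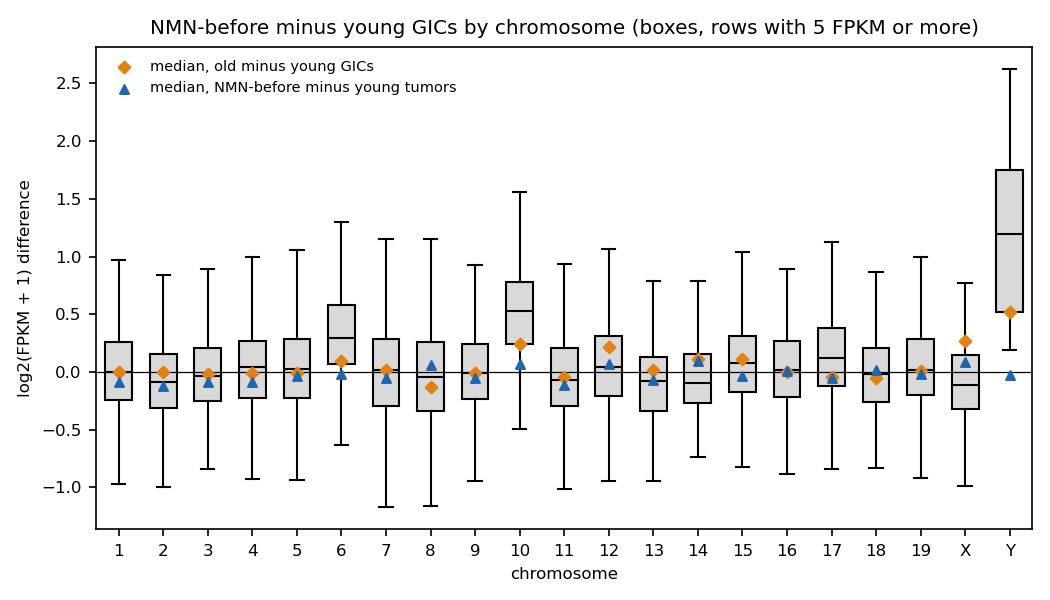
Log2(FPKM + 1) difference, NMN-before minus young GICs, by chromosome for rows reaching 5 FPKM in either library (box, quartiles and median; whiskers, 1.5 times the interquartile range), with the medians of old minus young GICs (diamonds) and NMN-before minus young tumors (triangles). Chromosome 10 stands at 0.53 and chromosome 6 at 0.30, and the tumor medians of these chromosomes are 0.07 and -0.01.

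The tumor table, normalized apart from the GIC table and sharing no library with it, was set beside the cultures by its own NMN-before minus young differences. There 400 rows (2.79%) were 2-fold higher and 140 (0.977%) 2-fold lower among 14335 measured. Of 12196 rows measured in both tables, 403 were 2-fold higher in NMN-before cultures and 160 in the NMN-before tumor, and 14 were shared, 3.47% of the culture rows and 8.75% of the tumor rows. Another 15 of those 403 rows (3.72%) were 2-fold lower in the NMN-before tumor. For lower rows the counts were 316 in cultures and 82 in the tumor with 15 shared, 4.75% of the culture rows and 18.3% of the tumor rows, and another 34 of the 316 (10.8%) were 2-fold higher in the tumor. Over all 12196 rows 1.31% were 2-fold higher and 0.672% 2-fold lower in the tumor, to be read beside the shares of culture rows. The shares of tumor rows are to be read beside the 403 and 316 culture rows among all 12196. The tumor median of the rows 2-fold higher in culture was 0.01 and that of the rows 2-fold lower in culture 0.04.

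Interferon-stimulated genes and GTPases were lower in both tables. In tumors 24 of 26 interferon-stimulated genes were lower (median -0.50), as were all 5 GTPases (-0.90). Isg15 was at 33.4 FPKM in the NMN-before tumor, 44.5 in the old tumor and 76.5 in the young tumor. MHC class I chains were lower in 10 of 10 but by less, with a median of -0.19. The tumor median of the constitutive proteasome core was near it at -0.17, with 12 of 13 lower. The share of all tumor rows lower by any amount was not taken, so these counts of lower members have none beside them. Tumor medians by chromosome, for rows reaching 5 FPKM in NMN-before or young GICs, ran from -0.12 (chromosome 2) to 0.09 (chromosome 14). B2m was at 1094 FPKM in the NMN-before tumor, 1159.9 in the old tumor and 1134 in the young tumor, and its difference of -0.05 stands beside -1.77 in cultures. Psmb8 differed by -0.30 and Nlrc5 by -0.36 in tumors.

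The glial and mesenchymal lists did not show in tumors the medians they had in cultures. For oligodendrocyte precursor markers the median was -0.20 in tumors and 1.37 in cultures, for astrocyte markers -0.17 in tumors and 1.02 in cultures, and for mesenchymal genes -0.06 in tumors and -0.63 in cultures. Tumor libraries also hold RNA of host cells. The 17 microglia and macrophage markers with a row of their own summed to 974 FPKM in the NMN-before tumor, 1206 in the old tumor and 774 in the young tumor. The 12 endothelial markers summed to 95.4 FPKM in the NMN-before tumor, 84.2 in the old tumor and 82.1 in the young tumor. The 13 lymphocyte markers summed to 52.6 FPKM in the NMN-before tumor, 119.7 in the old tumor and 17.4 in the young tumor, and the 7 erythroid markers to 57.9 FPKM in the NMN-before tumor, 224 in the old tumor and 169 in the young tumor. The part of host cells in the tumor values was not tested.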

How the data were processed

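RNA was sequenced from 6 libraries, 1 for each of 3 tumor and 3 GIC groups. Per the labels' protocols, total RNA was depleted of ribosomal RNA and made into stranded libraries for paired-end sequencing. STAR 2.5.4b on GRCm38, Trim Galore 0.6.2, bcl2fastq 1.8.4, Cuffdiff and Cufflinks 2.2.1 are named per the submitters' processing notes. The authors deposited FPKM values in 1 table for tumors and 1 for GICs; the annotation, the normalization mode and whether counting used strand were not given in the sources used, so reads of a gene and an antisense or overlapping partner may be mixed. Depth is that recovered from steps of low FPKM values.

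A pseudocount of 1 FPKM was added before taking log2 differences, with Python 3.11.15, pandas 2.3.3 and numpy 2.4.6, among rows reaching 1 FPKM in any library of a table. Lists used rows naming 1 gene; of the measured rows 737 name several. GENCODE M21 (GRCm38) supplied coordinates, gene types and transcript GC content for 43950 rows, and RefSeq (GRCm38.p6) the promoters. The 68 lists and the comparison were chosen with earlier results of these data known. Genes were named by rule: the 20 highest and 20 lowest protein-coding differences at 5 FPKM or more, the 5 largest of each list with up to 2 of the opposite sign, the counterparts of the immunoproteasome and 12 fixed genes. Named outside the rule, after their values were seen, were Ifitm3, Fabp7, Slc1a3, Ptprz1, Sox10, Aqp4, Ciita, Cd38, Nnmt, the genes of shared rows and the low markers Cx3cr1, Ptprc and Pdgfrb. Alternatives changed the pseudocount, the filter, the scaling and the rows used. Added after seeing the data were a correction for GC content and the removal of chromosomes 6 and 10. In each table, 2 lines empty of values were not analysed here. Steps were tested on simulated data. Some results of the named-gene rule are not reported here.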

Additional observations from a re-analysis of the deposited data

Results flagged for a closer look

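Hspa1b and Il33 were 2-fold lower in NMN-before than in young GICs and 2-fold higher in the NMN-before than in the young tumor; 1 library stands behind each value, and the difference between tumor and culture was not tested. The inducible heat shock gene Hspa1b had a log2 difference of 1.06 in tumors and -1.74 in cultures, with 7.74 FPKM in the NMN-before tumor, 1.70 in the old tumor and 3.19 in the young tumor. The alarmin gene Il33 had 1.97 in tumors and -1.40 in cultures, with 15.1 FPKM in the NMN-before tumor, 6.32 in the old tumor and 3.10 in the young tumor; in cultures it was at 1.11 FPKM in NMN-before GICs, against 7.20 in old and 4.57 in young GICs.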

How the results depend on the processing

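The counts of 459 higher and 389 lower rows moved with the pseudocount, the filter, the scaling and the rows used. With a pseudocount of 0.1 FPKM they were 761 and 783, and with 0.5 FPKM 592 and 587. Among rows reaching 5 FPKM they were 337 and 202, and among protein-coding rows of 1 gene 336 and 246. After rescaling to TPM, with the 1 FPKM filter and pseudocount then applied on the TPM scale to 14384 rows, they were 618 and 837. With no filter they were unmoved, as they had to be, since a row under 1 FPKM throughout cannot reach a 2-fold difference here. With median-of-ratios scaling they were 484 and 378, and with the GC trend removed 397 and 379. Without chromosome 10 they were 390 and 382, and without chromosomes 6 and 10 350 and 374. Each reported list median was given a 95% binomial interval. Lists with fewer than 6 measured members got the full range of their members instead, which is wide. Of 670 list medians recomputed, 665 stayed within these intervals. The other 5 were, with a pseudocount of 0.1 FPKM, MHC class II (-2.49), interferon-stimulated genes (-1.47), GTPases (-2.19) and myelin genes (-0.78), and potassium channels among rows reaching 5 FPKM (0.64). Some of the 670 medians could not move. List members were fixed to measured rows, so dropping the filter returned the same median. Leaving out chromosomes 6 and 10 did the same for lists without members there. Medians of 19 lists changed sign in at least 1 alternative. Among them were glycolysis, -0.21 without chromosomes 6 and 10, and collagens, 0.33 among rows reaching 5 FPKM and 0.30 without chromosome 10. No named gene 2-fold apart changed sign in the alternatives run. This says little, since a pseudocount cannot change a sign and the scaling and GC shifts were far under 2-fold. Of 166 named genes 2-fold apart, 161 were so after median-of-ratios scaling and 161 after rescaling to TPM, and 152 of 165 with the GC trend removed. The medians of chromosomes 10 and 6 were 0.47 and 0.22 on the TPM scale, and that of the X chromosome -0.19, or -0.06 with the GC trend removed. Genes under about 1 FPKM rest on few fragments. No paired analysis was possible because each group is 1 library.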
